A study of Saccharomyces cerevisiae with 74 samples.

Results

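The mRNAs described here encode the proteins of the large (60S) ribosomal subunit of the budding yeast Saccharomyces cerevisiae. They were chosen by name: protein-coding genes called RPL followed by a number and an optional A or B, together with RPP0, RPP1A, RPP1B, RPP2A and RPP2B of the ribosomal stalk. This gave 81 of the 6551 protein-coding genes in the counts, and no measured value entered the choice. Of the 81 genes, 70 form 35 pairs of duplicated genes, here called paralogs, and 11 have a single copy. All 81 passed the filter on low counts in every fit.

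The study followed what happens to mRNAs and to the factors that start translation when yeast is stressed. Haploid cells grew in synthetic medium with glucose at 30°C. CRAC, in which cells are irradiated with ultraviolet light and the RNA held by a tagged protein is purified, trimmed and sequenced, was done for eIF4B, for the RNA helicase Ded1 and for the RNA helicase eIF4A, each carrying a short FLAG and histidine tag and made from its own promoter. Cells were moved to medium with glycerol and ethanol in place of glucose for 30 s (eIF4B, n = 2 libraries; Ded1, n = 2; eIF4A, n = 3) or for 16 min (3, 3 and 4), or to glucose medium at 42°C for 16 min (4, 3 and 4). For eIF4B another 2 libraries came from heat shock in the presence of cycloheximide, which stops ribosomes on the mRNA. Mock-shifted cells (3, 2 and 4) were filtered and moved to glucose medium for 16 min, and control cells (4, 3 and 6) were crosslinked in their culture. RNA-seq was done on 18 libraries without crosslinking and with RNA of the fission yeast Schizosaccharomyces pombe as a spike-in. These were wild type after 16 min at 42°C with cycloheximide (2), at 42°C (3), after 16 min without glucose (2) and unstressed (3), deltaXrn1 at 42°C (2) and unstressed (2), and deltaSki2 at 42°C (2) and unstressed (2). Another 4 CRAC libraries came from untagged cells. Libraries are named here by the numbers or letters of the labels.

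Ribosomal proteins are among the most highly expressed proteins of a growing yeast cell, and their mRNAs are short, abundant and heavily translated. Their synthesis is switched off together when cells meet stress or run out of nutrients, through transcription factors that sit at most of their promoters and through the control of mRNA decay and translation. eIF4A and Ded1 are helicases that help the small ribosomal subunit to load on the mRNA and scan its leader, and eIF4B stimulates eIF4A. Xrn1 is the cytoplasmic exonuclease that degrades decapped mRNA from the 5′ end, and Ski2 is the helicase of the complex that feeds mRNA into the exosome from the 3′ end.

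Tagged CRAC libraries held 183689 to 4385132 counted reads, of which 775 to 207477 lay on the 81 mRNAs, and RNA-seq libraries held 26398967 to 46538567 counted reads with 531145 to 990246 S. pombe reads beside them. The untagged libraries held 347 to 46692 reads and were not tested. In these the 81 mRNAs took 2.68% to 18.4% of the 129 to 12113 mRNA reads. The deletions were visible in the counts. XRN1 had 0.286 and 0.38 reads per 1000 S. pombe reads in unstressed deltaXrn1 libraries, against 22.2, 23.3 and 19.2 in wild type, and SKI2 had 0.015 and 0.0139 in unstressed deltaSki2 libraries, against 7.34, 7.59 and 6.29. CRAC values below are RPM, reads per 1000000 counted reads of the library, on which a lower share of all mRNA also lowers each mRNA. RNA-seq values are reads per 1000 S. pombe reads, called scaled reads. The S. pombe RNA was added to purified RNA at a fixed share, so that a scaled value is a level per amount of RNA, and a change in the RNA content of the cells is not measured on this scale.

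In unstressed wild-type cells the 81 mRNAs made up 10.3% to 11.5% of all mRNA reads. Divided by annotated length, their levels spanned a wide range. RPL32 stood highest with 280 ± 41.0 scaled reads per kilobase, followed by RPL41A (234 ± 17.9), which encodes the smallest protein of the ribosome, RPL28 (215 ± 51.5) and RPL10 (209 ± 38.9; SD, n = 3 for each). These neighbours overlapped within their spread. RPL39, the small protein in the wall of the exit tunnel, had 185 ± 24.4, RPL3 near the peptidyl transferase centre 183 ± 14.9 and RPL25 at the tunnel exit 182 ± 33.4 scaled reads per kilobase. At the low end were RPL7B (39.6 ± 1.18), RPL18B (32.4 ± 3.99), RPL22B (16.0 ± 1.2) and RPL15B (7.96 ± 1.07), all of them the weaker copy of a pair. The most unequal pairs were RPL15, with the A copy 19.5 times the B copy per kilobase, and RPL22 (5.56).

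The 3 factors did not sample these mRNAs evenly. Binding per mRNA was taken as the share of an mRNA in the mRNA reads of the unstressed CRAC libraries over its share in the wild-type RNA-seq libraries, so that 1 means binding in proportion to reads in RNA-seq. RNA-seq reads grow with the length of an mRNA and crosslinks near one end need not, so that short mRNAs can score high. For eIF4B the median member had 1.34, for Ded1 0.9 and for eIF4A 1.13. RPL41B and RPL41A, whose coding sequences are among the shortest in the genome, led for every factor, with 12.8 and 9.73 for eIF4B, 5.02 and 2.31 for Ded1, and 12.5 and 11.3 for eIF4A. RPL3, with an annotated length of 1321 bases the longest member, was lowest for eIF4B (0.3) and Ded1 (0.307) and had 0.371 for eIF4A. In RPM, RPL41A had 10086, 10061, 13021 and 9136 in eIF4B control libraries and 1638, 1907 and 2977 in Ded1 control libraries. The difference between eIF4B and Ded1 in unstressed cells was tested in a fit scaled to mRNA reads. The median member was 0.56 higher for eIF4B on the log2 scale, while over all genes the median was -0.58. No member passed the test (edgeR; 0.0% of the 5772 genes tested were called higher for eIF4B). At an unadjusted p under 0.05 there were 6 members, and DESeq2 called 1. RPL43B had the highest value with 2.58 ± 0.969 (SE, edgeR adjusted p = 0.863), from 1214, 1752, 1460 and 1069 RPM for eIF4B against 208, 230 and 115 for Ded1, and RPL41A came next (adjusted p = 0.845).

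**Figure D1:**
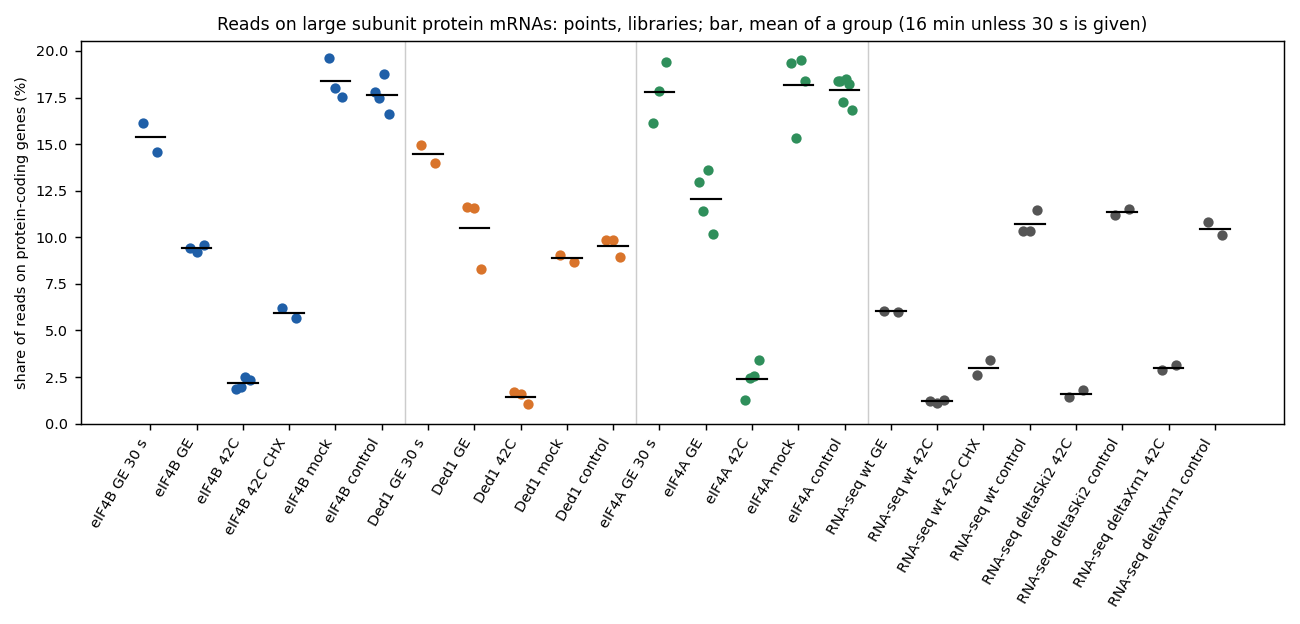
Share of the 81 large subunit mRNAs in all mRNA reads, in percent, with 1 point per library and stressed groups left of their controls. After heat shock the points lie at 1.06% to 3.4% for the 3 factors and at 1.1% to 1.25% in wild-type RNA-seq, below every unstressed library of the same kind.

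Moving cells to fresh glucose medium changed no member past the test. In mock-shifted cells none changed relative to the control in any of the 3 factors (edgeR; 0 members at an unadjusted p under 0.05 and 0 called by DESeq2). The median log2 fold changes were -0.03 for eIF4B, -0.05 for Ded1 and -0.18 for eIF4A, where 0.036%, 0.0% and 0.0% of all genes were called lower.

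Glucose withdrawal lowered the mRNAs themselves to a moderate degree. After 16 min all 81 mRNAs had fallen in wild type (edgeR, adjusted p below 0.05), where 40.8% of all genes were called lower. The median log2 fold change was -1.38, with members between -1.86 and -0.75 and a median of -0.26 over all genes. Their summed level was 1948 to 2472 scaled reads without glucose, against 4761 to 6011 in control cells. The largest decreases were those of RPL17B (-1.86 ± 0.21, SE), RPL14A (-1.83) and RPL23A (-1.82). RPL17B, a protein at the tunnel exit, had 14.1 and 10.9 scaled reads without glucose, against 41.5, 44.1 and 50.8 in control cells. The smallest decreases were those of RPL15B (-0.77 ± 0.181, adjusted p = 6.89e-05), RPL4A (-0.75 ± 0.209, adjusted p = 0.000875) and RPL3 (-0.75 ± 0.215, adjusted p = 0.00115). RPL3 had 164 and 123 scaled reads without glucose, against 224, 238 and 263 in control cells, with no overlap. By role, the median was -0.99 for the 6 genes of the peptidyl transferase and tRNA region, -1.07 for the 7 stalk genes, -1.24 for the 3 genes of the 5S particle and -1.46 for the 12 genes of the exit tunnel.

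eIF4B binding to many of these mRNAs was lower at the first time point. After 30 s without glucose 43 members were called lower in eIF4B binding and none higher (edgeR), where 11.0% of all genes were called lower. All 81 had negative fold changes. The count rested on both stressed libraries: it was 3 without library 72 and 4 without library 73. The median log2 fold change was -2.17, close to the -2.24 over all genes. RPL38 had 121 and 96.0 RPM after 30 s, against 1574, 2166, 2528 and 1230 RPM in control cells (-4.11 ± 0.675). RPL7A had 177 and 188 RPM, against 2861, 3450, 3089 and 2185 RPM (-3.99), and RPL30, whose protein restrains the splicing of its own transcript, had 199 and 202 RPM, against 2883, 3362, 2921 and 1947 RPM (-3.79). Every value of these members after 30 s lay below every control library. RPL3 was at the other end with 555 and 866 RPM, against 781, 947, 1054 and 1116 RPM (-0.46 ± 0.635, adjusted p = 0.583), and its groups overlapped. RPL21B and RPL18B had -0.61 each and were not called. By role, 10 of the 12 exit tunnel genes (median -2.52) and 5 of the 7 genes of the bridge, late and smallest proteins (-2.05) were called lower. The calls were 1 of 6 in the peptidyl transferase and tRNA region (-1.66), 2 of 7 in the stalk (-1.48) and 0 of the 2 ubiquitin fusions (-1.9). The medians thus differed less than the counts. All mRNA took 15.3% to 16.9% of the counted reads of these libraries, against 62.5% to 70.6% in control cells. Scaled to mRNA reads, the median member had -0.12, the median gene -0.2, and 0 members were called (edgeR; 6 lower and 3 higher at an unadjusted p under 0.05). The member share of mRNA reads was 14.6% to 16.1% after 30 s, against 16.6% to 18.8% in control cells.

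After 16 min without glucose 70 members were lower in eIF4B binding and none was higher, where 17.9% of all genes were called lower. The median was -2.46 for the members and -1.75 over all genes, and the member share of mRNA reads was 9.22% to 9.58%, below all control libraries. The largest decreases were those of RPL31B (-3.89), RPL30 (-3.61 ± 0.56) and RPL6B (-3.58). RPL25, the binding site of several factors that meet the nascent chain, had 168, 97.1 and 246 RPM, against 2062, 1631, 1705 and 1543 RPM in control cells (-3.35). RPL41A had 1001, 919 and 982 RPM, against 10086, 10061, 13021 and 9136 RPM (-3.45). RPL3 did not follow: it had 1045, 1032 and 884 RPM, against 781, 947, 1054 and 1116 RPM in control cells, so that the groups overlapped (0.02 ± 0.549, adjusted p = 0.988). The other 10 members that were not called were RPL22B, RPL26A, RPL9B, RPL2A, RPL5, RPL15B, RPL4B, RPL21B, RPL7B and RPL18B, and the highest values after RPL3 were -0.76 ± 0.793 for RPL18B (adjusted p = 0.494) and -1.14 ± 0.704 for RPL7B (adjusted p = 0.235). All 7 stalk genes, 11 of 12 exit tunnel genes and both ubiquitin fusions were called lower, against 3 of 6 genes of the peptidyl transferase and tRNA region (median -1.34). Scaled to mRNA reads, 11 members were called lower, with a median of -0.86 and of -0.09 over all genes.

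Ded1 binding changed for few of these mRNAs when glucose was withdrawn. After 30 s without glucose 1 member was lower and 1 was higher in Ded1 binding, with a median of -0.01, where 8.34% of all genes were called lower and 0.0345% higher and the median over all genes was -0.97. RPL1B had 283 and 387 RPM, against 1090, 1115 and 1038 RPM in control cells (-1.69 ± 0.367, adjusted p = 0.00697). RPL37B had 1538 and 954 RPM, against 487, 550 and 402 RPM (1.38 ± 0.419, adjusted p = 0.0414), with both values above all controls. Without library 69 neither call stood, with 0 members called and 3 at an unadjusted p under 0.05. The member share of mRNA reads was 14.0% to 14.9% in Ded1 libraries after 30 s, against 8.92% to 9.88% in control libraries. Scaled to mRNA reads, the median member had 0.62 and the median gene -0.31, with 9 members called higher and 0 lower. The all-mRNA share of counted reads was 34.4% to 37.5%, against 47.4% to 67.9% in control libraries.

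After 16 min without glucose 6 members were lower in Ded1 binding, where 3.59% of all genes were called lower, and the median was -0.45, against -0.71 over all genes. These were RPL41B (-1.85 ± 0.302, adjusted p = 0.00134), RPL41A (-1.5, adjusted p = 0.00672), RPP1A (-1.18), RPL30 (-1.14), RPL1B (-1.11) and RPL35A. RPL41B had 643, 439 and 1009 RPM, against 2101, 2507 and 2926 RPM in control cells, and RPP1A, an acidic stalk protein, had 388, 399 and 379 RPM, against 740, 935 and 975 RPM. RPL3 had the highest value with 1223, 1129 and 2145 RPM, against 656, 860 and 1051 RPM (0.81, adjusted p = 0.154), all above the controls without passing the test. RPL10 (0.5) and RPL5 (0.48) came next and were not called either. The count rested on single libraries: it was 2 without library 59, 62 or 61, 3 without library 57 and 1 without library 65. It also rested on the scale. With TMM, edgeR's scaling that sets the bulk of genes to no change, 1 member was lower and 5 were higher with a median of 0.24, and scaled to mRNA reads 2 were lower and 2 higher with a median of 0.1, against -0.2 over all genes.

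The change in eIF4B binding after 16 min differed from that in Ded1 binding. In a joint fit with an interaction term 27 members had a lower change for eIF4B than for Ded1 and none a higher one, where 2.29% of all genes were called lower. The median difference was -1.96 for the members and -1.08 over all genes. RPL25 had the largest (-3.46 ± 0.642, adjusted p = 0.00136). Its Ded1 values were 631, 506 and 648 RPM without glucose, against 465, 589 and 602 RPM in control cells, beside the decrease to 97.1 to 246 RPM in eIF4B libraries. RPL6B (-3.31) and RPL33B (-3.11) followed. Exit tunnel genes gave 6 of the 27 from 12 members and the peptidyl transferase and tRNA region 0 of 6, with RPL4B at -0.94 and RPL3 at -0.79 (adjusted p = 0.635). The count was 5 without Ded1 control library 57 or 61, 10 without Ded1 library 67 and 15 to 17 without Ded1 library 59 or 65 or eIF4B library 21, 22 or 26. Scaled to mRNA reads the median difference was -0.87, against 0.04 over all genes, and 0 members were called (22 at an unadjusted p under 0.05, edgeR), while DESeq2 called 59 on the scale of all counted reads.

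For eIF4A no member passed the test after glucose withdrawal (edgeR; 0.0% of all genes called lower at 30 s and 0.0% at 16 min). The median was -0.99 after 30 s, with 7 members at an unadjusted p under 0.05 and 3 called by DESeq2, and -0.79 after 16 min, with 11 and 4. Over all 4853 genes 762 and 866 had an unadjusted p under 0.05, a larger share than among the members. The medians over all genes were -1.61 and -0.82. On the scale of mRNA reads the median member had 0.12 at 30 s, against -0.47 over all genes. RPL7A had the lowest value at 30 s (-3.0), and RPL22B (-4.04, adjusted p = 0.245) and RPP0 (-2.84, adjusted p = 0.09) at 16 min.

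**Figure D2:**
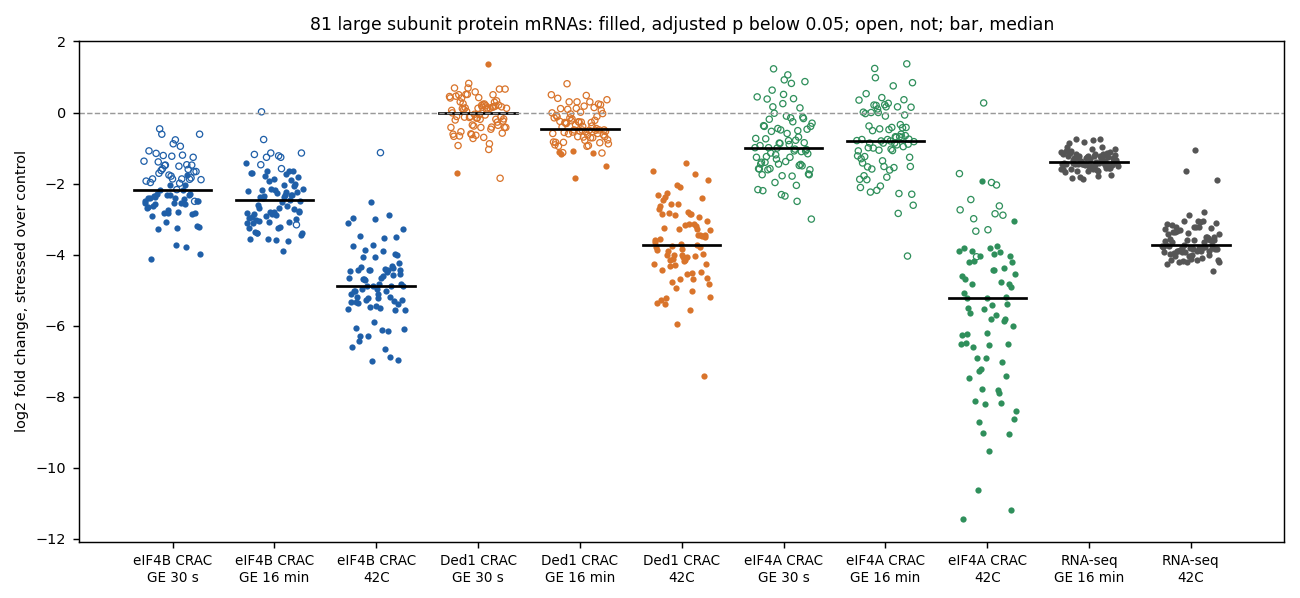
Log2 fold changes of the 81 large subunit mRNAs, stressed over control, for binding by eIF4B (blue), Ded1 (orange) and eIF4A (green) and for RNA-seq level in wild type (grey), with GE for glycerol and ethanol in place of glucose. Each point is an mRNA, filled where the adjusted p was below 0.05, and the bar is the median: -2.46 for eIF4B and -0.45 for Ded1 after 16 min without glucose, and -4.87 and -3.72 after heat shock. For eIF4A after heat shock 4 members had no reads, and their points are fitted values and no bound.

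Heat shock left little of these mRNAs after 16 min. All 81 had fallen in wild type (edgeR), where 63.3% of all genes were called lower, with a median log2 fold change of -3.73 and of -0.77 over all genes. The summed level was 384 to 509 scaled reads at 42°C, against 4761 to 6011 in control cells. RPL22B fell the most with 0.378, 0.348 and 0.356 scaled reads at 42°C, against 7.27, 8.02 and 8.45 in control cells (-4.45 ± 0.186), and was followed by RPL26B (-4.27 ± 0.205) and RPL13A (-4.22 ± 0.196). RPL3 had 16.7, 15.0 and 16.7 scaled reads, against 224, 238 and 263 (-3.9 ± 0.212). RPL4A had 6.66, 6.06 and 6.23, against 104, 109 and 112 (-4.1). RPL3 and RPL4A, at the small end of the changes after glucose withdrawal, thus fell by more than the median member in heat.

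The mRNAs that kept the most in heat were few. RPL15B had 2.57, 2.52 and 2.97 scaled reads at 42°C, against 5.0, 5.25 and 6.4 in control cells (-1.05 ± 0.16, adjusted p = 1.25e-10), a decrease of about 2-fold. RPL41B had 14.7, 12.0 and 15.4, against 39.9, 42.8 and 48.4 (-1.64 ± 0.183), and RPL41A had 23.1, 19.3 and 22.2, against 74.7, 80.0 and 87.0 (-1.91 ± 0.189). Both RPL41 copies, which encode a peptide at a bridge between the subunits, became the highest members per kilobase at 42°C with 62.3 ± 5.71 and 36.5 ± 4.61 scaled reads per kilobase (SD, n = 3). RPP0, the anchor of the stalk, had 20.4, 15.5 and 22.3, against 136, 140 and 129 (-2.8 ± 0.197). By role, the median was -3.22 for the stalk, -3.39 for the bridge, late and smallest proteins, -3.6 for the exit tunnel, -3.7 for the ubiquitin fusions, -3.9 for the 5S particle and -4.0 for the peptidyl transferase and tRNA region.

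**Figure D3:**
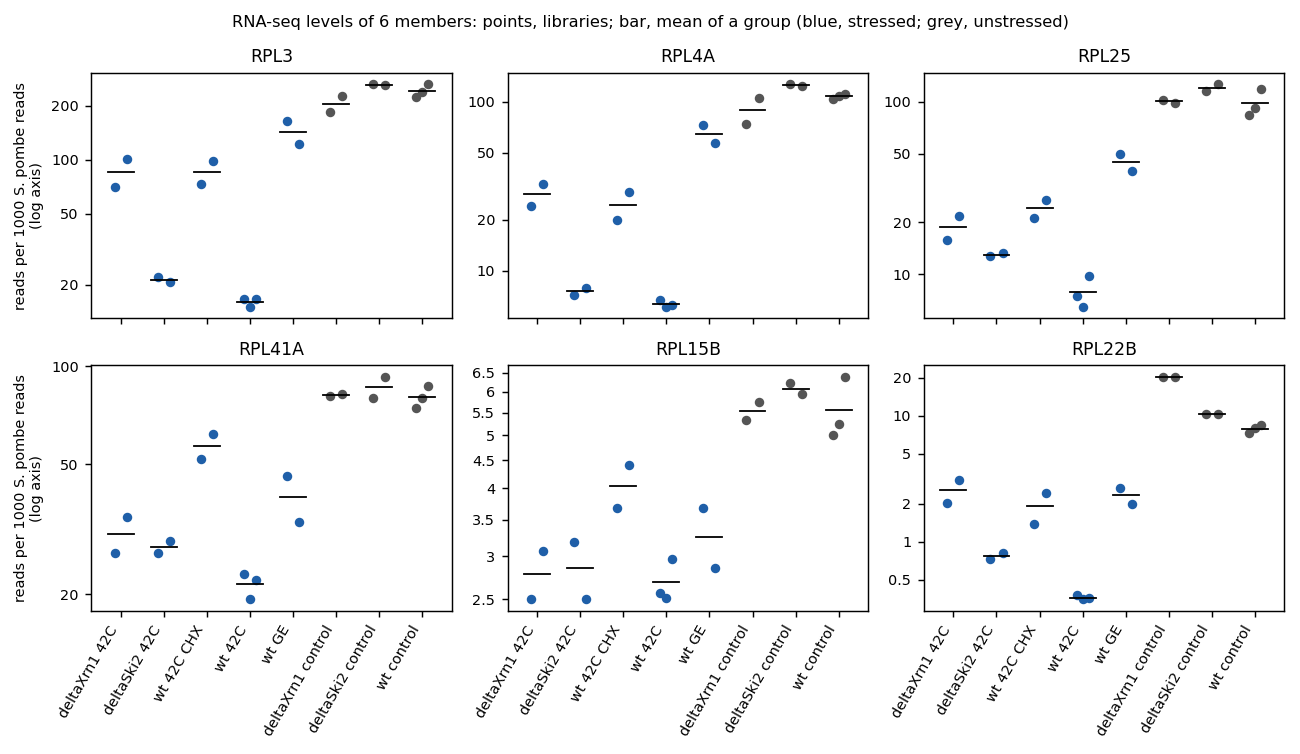
RNA-seq levels of 6 members in reads per 1000 S. pombe reads on a log axis, with 1 point per library and the group mean as a bar; blue marks heat-shocked or glucose-deprived groups and grey unstressed ones. RPL22B lies at 0.348 to 0.378 in wild type at 42°C, RPL15B at 2.52 to 2.97, and RPL3 at 70.1 and 101 in deltaXrn1 at 42°C, above its 15.0 to 16.7 in wild type.

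All 3 factors lost these mRNAs in heat. For eIF4B 80 of the 81 were called lower, where 23.7% of all genes were, with a median of -4.87 and of -1.45 over all genes. RPL22A had 0, 0, 12.4 and 12.4 RPM at 42°C, against 1333, 1432, 1001 and 772 RPM in control cells (-6.99 ± 0.68), and RPL30 had 0, 0, 38.3 and 36.7 RPM, against 2883, 3362, 2921 and 1947 RPM (-6.87 ± 0.587). The values of 0 were in the shallow libraries 23 and 56, where 25 and 50 members had no reads, and do not show absence. RPL22B had 2 reads over the 4 heat shock libraries, or 0.494 RPM, which is 0.658% of its control mean of 75.0 RPM (exact 95% Poisson interval 0.0797% to 2.38%, counting error only). The smallest changes were those of RPP0 (-2.88 ± 0.373), RPL41B (-2.53 ± 0.344) and RPL15B (-1.13 ± 0.646, adjusted p = 0.195). RPL41B had 1458, 1301, 1368 and 1081 RPM, against 7948, 7055, 9299 and 5847 RPM. RPL15B had 25.8, 452, 44.5 and 69.4 RPM, against 332, 295, 467 and 158 RPM, where library 56 alone stood within the control range. Without it RPL15B was called lower, at -2.7 (adjusted p = 0.000336). All mRNA took 25.2% to 33.1% of the counted reads, against 62.5% to 70.6% in control cells. Scaled to mRNA reads the median member still had -3.76, against -0.34 over all genes, and 79 members were called lower.

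For Ded1 all 81 members had fallen, where 23.0% of all genes were called lower, with a median of -3.72 and of -0.82 over all genes. RPL22B again had few reads, 3 over 3 libraries, or 0.545% of its control mean of 85.5 RPM (0.112% to 1.59%). RPL22A had 12.2, 9.28 and 0.688 RPM at 42°C, against 439, 461 and 557 RPM in control cells (-5.95). The members that kept the most were RPP0 with 547, 778 and 745 RPM, against 1788, 1927 and 3133 RPM (-1.73 ± 0.286), RPL10 with 267, 406 and 209 RPM, against 858, 1151 and 782 RPM (-1.66), and RPL15B with 43.2, 71.7 and 19.3 RPM, against 106, 114 and 143 RPM (-1.42 ± 0.493, adjusted p = 0.0325). RPL10 encodes a protein that joins the subunit late and reaches towards the tRNA sites, and its mRNA had a change of -3.75 in RNA-seq.

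For eIF4A 68 members were called lower, where 6.88% of all genes were, with a median of -5.23 and of -2.15 over all genes. The 4 heat shock libraries held 1819490 counted reads together, and each detected 24 to 54 of the 81 mRNAs. RPL26B, RPL11B, RPL23A and RPL22B had no reads in any of them. A floor of 3 reads over the group, or 1.65 RPM, was set for them. They were thus at least 295-, 249-, 167- and 55.8-fold lower than their control means of 486, 411, 276 and 92.0 RPM. This bound covers counting error only, and the spread between libraries is not in it. RPL7B had the highest value (0.27, adjusted p = 0.923), followed by RPL33B (-1.72, adjusted p = 0.294) and RPL41B (-1.93, adjusted p = 0.0452). The first 2 rested on library 54. RPL7B had 102 reads there and 0, 0 and 12 in libraries 15, 16 and 83. RPL33B had 95 reads there and 0 in each of the others.

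In heat the test of a difference between the changes in eIF4B and in Ded1 binding called few members. The interaction term had a median of -1.15, against -0.62 over all genes, and 2 members passed, RPL7A (-2.75, adjusted p = 0.0173) and RPL30 (-2.79, adjusted p = 0.0308), where 0.103% of all genes were called lower. RPL7A had 17.2, 16.3, 42.0 and 77.9 RPM for eIF4B, against 2861, 3450, 3089 and 2185 RPM in its controls, and 92.2, 80.1 and 39.9 RPM for Ded1, against 534, 662 and 943 RPM in its controls. Scaled to mRNA reads the median was -0.41, against 0.09 over all genes, with 0 members called (edgeR; 9 lower and 2 higher at an unadjusted p under 0.05). The count was 0 without Ded1 library 60, 63, 57 or 61 or eIF4B library 21 or 26, 1 without Ded1 library 65 or eIF4B library 08, and 4 and 5 without eIF4B libraries 98 and 75.

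Members that lost more mRNA in heat also lost more binding. Across the 81 mRNAs the heat shock change in RNA-seq correlated with that in eIF4B binding with Spearman's rho of 0.68 (Pearson's r 0.71), with that in Ded1 binding with 0.74 (0.7) and with that in eIF4A binding with 0.49 (0.49). These are descriptions across genes, which are not independent replicates, and paralogs share sequence and, in part, reads. After glucose withdrawal rho was 0.35 for eIF4B and 0.12 for Ded1. On their own scales, RPM for binding and scaled reads for level, the log2 change in heat was lower in eIF4B binding than in RNA-seq for 78 members, with a median difference of -1.3, and lower in Ded1 binding for 42, with a median difference of -0.08. After 16 min without glucose the counts were 75 for eIF4B (-1.16) and 4 for Ded1 (0.95). The scales differ, so that their zero points cannot be set against each other.

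**Figure D4:**
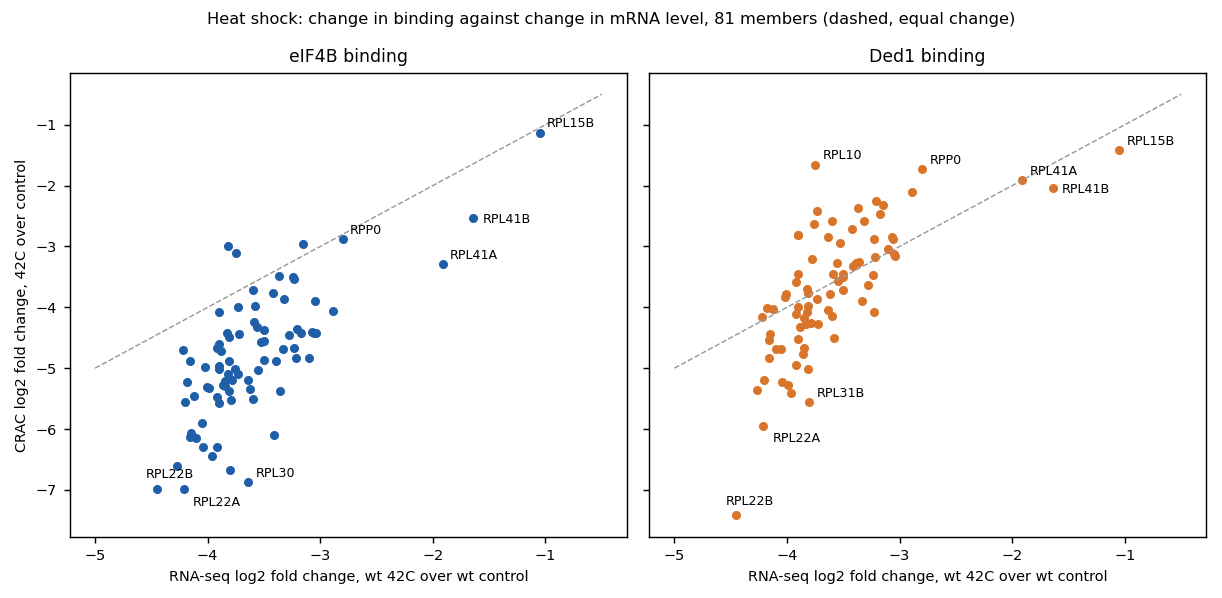
Heat shock change of the 81 large subunit mRNAs in wild-type RNA-seq (x axis, log2) against the change in eIF4B binding (left) and in Ded1 binding (right; y axes, log2), with a dashed line where both are equal. For eIF4B 78 of the 81 points lie under the line and for Ded1 42, and RPL15B, RPL41A and RPL41B lie at the right of both panels.

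With cycloheximide the heat-shocked cells kept more of these mRNAs. All 81 were higher than at 42°C alone (edgeR), where 78.9% of all genes were called higher, with a median of 1.74 and of 1.02 over all genes, and the summed level was 1338 to 1827 scaled reads with cycloheximide, against 384 to 509 without. RPL37B had 20.8 and 25.8 scaled reads with cycloheximide, against 3.21, 2.78 and 3.09 without (2.94 ± 0.2). RPL42B (2.56) and RPL36B (2.55) followed, while RPL15B had 3.67 and 4.41, against 2.57, 2.52 and 2.97 (0.59, adjusted p = 0.00113), and RPP0 26.2 and 38.9, against 20.4, 15.5 and 22.3 (0.75, adjusted p = 0.000382). With TMM scaling RPL15B and RPP0 turned to -0.4 and -0.25. The levels with cycloheximide remained below those of unstressed cells, where RPL37B had 41.0, 43.3 and 51.6.

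eIF4B binding to most members was higher with cycloheximide too. With cycloheximide 68 members were higher than at 42°C alone and none was lower, where 7.27% of all genes were called higher, with a median of 2.79 and of 1.24 over all genes. RPL30 had 588 and 913 RPM with cycloheximide, against 0, 0, 38.3 and 36.7 RPM without (4.98 ± 0.574), and RPL26B had a change of 4.82. RPL3 had 429 and 404 RPM, against 0, 0, 108 and 97.2 RPM. For RPL30 and RPL3 the values of 0 were again in the shallow libraries 23 and 56. At the other end were RPP0 with 1012 and 1248 RPM, against 774, 425, 856 and 959 RPM (0.58, adjusted p = 0.467), RPL41B with 1733 and 1154 RPM, against 1458, 1301, 1368 and 1081 RPM (0.15, adjusted p = 0.883), and RPL15B (-1.6, adjusted p = 0.289), which had -0.03 without library 56. By role, 11 of 12 exit tunnel genes, 5 of 6 of the peptidyl transferase and tRNA region (median 3.65) and 4 of 7 stalk genes (2.35) were called higher. The member share of mRNA reads was 5.66% to 6.22% with cycloheximide, against 1.84% to 2.52% at 42°C alone. The libraries with cycloheximide and heat shock library 98 were counted on a later annotation than the others.

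Loss of Xrn1 left more of these mRNAs in heat. In deltaXrn1 cells at 42°C 77 members were higher than in wild type at 42°C and none was lower, where 41.3% of all genes were called higher, with a median of 1.29 and of 0.29 over all genes. The summed level was 1021 to 1374 scaled reads in deltaXrn1 at 42°C, against 384 to 509 in wild type at 42°C. Fewer members differed without stress: in unstressed cells 7 members were higher and 2 lower in deltaXrn1 than in wild type, where 42.6% of all genes were called higher and 12.0% lower, with a median of 0.0 for the members and 0.32 over all genes. The heat shock change itself was less negative in deltaXrn1 than in wild type for 73 members and more negative for none, where 12.5% of all genes were called higher in the interaction term. The median difference was 1.28 for the members and -0.07 over all genes.

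The mRNAs of the peptidyl transferase and tRNA region had the largest differences. RPL3 had 70.1 and 101 scaled reads in deltaXrn1 at 42°C, against 16.7, 15.0 and 16.7 in wild type at 42°C, while unstressed cells had 184 and 226, against 224, 238 and 263. Its heat shock change was 2.64 ± 0.304 less negative in deltaXrn1 (adjusted p = 1.26e-15), followed by RPL4A (2.44) and RPL4B (2.36). RPL4A had 24.0 and 32.7 scaled reads, against 6.66, 6.06 and 6.23 in wild type at 42°C, with no overlap. By role the median interaction was 2.16 for these 6 genes, 1.5 for the 5S particle, 1.46 for the ubiquitin fusions, 1.43 for the stalk, 1.2 for the bridge, late and smallest proteins and 1.19 for the exit tunnel, and 6 of 6, 3 of 3, 2 of 2, 6 of 7, 5 of 7 and 12 of 12 were called. Longer members tended to have the larger difference, with a Spearman's rho of 0.48 between length and the interaction term over the 81 mRNAs, as a description without a test. The 8 members that did not pass were RPL15B (0.06, adjusted p = 0.895), RPL27B (0.34, adjusted p = 0.393), RPL41A (0.49, adjusted p = 0.22), RPL9B (0.53), RPL37A (0.58), RPL16A (0.59), RPL41B (0.63) and RPL12B (0.69). RPL15B had 2.5 and 3.07 scaled reads in deltaXrn1 at 42°C, against 2.57, 2.52 and 2.97 in wild type at 42°C, so that the groups overlapped.

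The members that were higher in deltaXrn1 without stress were led by RPL22B with 20.3 and 20.5 scaled reads, against 7.27, 8.02 and 8.45 in wild type (1.37, adjusted p = 6.46e-14), and RPL40B with 153 and 133, against 57.9, 63.1 and 76.1 (1.12, adjusted p = 1.09e-07). RPL40B encodes ubiquitin fused to the subunit protein, as does RPL40A, which had 72.4 and 64.5, against 61.9, 67.7 and 81.2, with overlap. RPL14A (0.89, adjusted p = 2e-05), RPL17A (0.64), RPL31B (0.58), RPL14B (0.54) and RPL28 (0.45) were also higher, and RPP0 (-0.49, adjusted p = 0.0347) and RPL6B (-0.43, adjusted p = 0.0484) were lower. All deltaXrn1 libraries have letters from H onward, while wild-type control libraries A and B have earlier ones. RPL28 had 182 and 162 scaled reads in deltaXrn1, against 103 and 114 in A and B but 160 in wild-type library H. Neither decrease passed without library A, B or M, and without A and M the calls were 4 and 5, all of them higher. The split depended on the scale. With TMM 44 members were called lower and 3 higher, with a median of -0.37, and scaled to the mRNA reads of S. cerevisiae 13 were lower and 8 higher.

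Loss of Ski2 changed less. In deltaSki2 cells at 42°C 15 members were higher than in wild type at 42°C and none was lower, where 1.77% of all genes were called higher, with a median of 0.44 and of 0.01 over all genes. RPL22B had 0.727 and 0.81 scaled reads, against 0.378, 0.348 and 0.356 (1.09 ± 0.186, adjusted p = 5.2e-06), RPL27B had a change of 0.79 (adjusted p = 0.00813) and RPL42A of 0.77 (adjusted p = 0.0122). The lowest values were those of RPL6B (0.06), RPL37A (0.08) and RPL15B (0.09). The count was 1 without any one of libraries L, Q, E and F and 30 without wild-type library I. All deltaSki2 libraries have letters from H onward, while wild-type heat shock libraries E and F have earlier ones, and in a fit with these 2 runs of letters as a covariate only RPL22B passed, with a median of 0.28 over the members and of -0.02 over all genes. No label says what the letters stand for. The heat shock change did not pass the test of a difference between deltaSki2 and wild type for any member (edgeR; 1 at an unadjusted p under 0.05, DESeq2 0; 0.0% of all genes were called higher). The median of that interaction was 0.25, against -0.13 over all genes, and RPL22B had the highest value (0.72, adjusted p = 0.808).

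The copies of a pair encode nearly the same protein, and reads that matched both equally well were placed at random by the authors, which draws the values of near-identical copies together. In RNA-seq the copies of most pairs fell alike in heat. The absolute difference of their log2 fold changes had a median of 0.28 over the 35 pairs and exceeded 1 in 2 pairs, RPL15 (-2.71, A minus B) and RPL26 (1.22). RPL14 (-0.89), RPL24 (-0.86) and RPL40 (0.84) followed. After glucose withdrawal the median was 0.13 and the largest difference 0.66. In CRAC, where a pair has fewer reads, the medians in heat were 0.76 for eIF4B and 0.74 for Ded1, with 11 and 10 pairs over 1.

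RPL15, an essential protein in the core of the subunit, showed the largest shift. Its A copy took 79.2%, 76.8% and 77.7% of the RNA-seq reads of the pair in wild type at 42°C, against 95.8%, 96.1% and 95.6% in control cells. RPL15A had 9.76, 8.34 and 10.3 scaled reads at 42°C, against 115, 128 and 140 (-3.76 ± 0.206), beside the about 2-fold decrease of RPL15B. With cycloheximide in heat the A share was 90.0% and 91.7%, and in deltaXrn1 at 42°C 92.3% and 92.8%, against 96.2% and 95.9% in unstressed deltaXrn1, while deltaSki2 at 42°C had 80.1% and 81.8%. In Ded1 binding the A share was 79.2%, 72.2% and 88.2% in heat, against 89.0%, 89.8% and 89.4% in control cells. The 88.2% of library 68, from 209 and 28 reads, lay close to the lowest control, so that the shift rested on libraries 60 and 63. In eIF4B binding it was 0%, 3.49%, 82.3% and 61.3% in heat, against 89.2%, 89.1%, 87.7% and 95.2%. The 0% came from 0 reads on RPL15A and 6 on RPL15B in library 23. The 3.49% came from 3 and 83 reads in library 56, whose RPL15B value stood apart from the other heat shock libraries.

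RPL26 moved the other way. Its A copy took 52.4%, 52.1% and 56.2% of the reads of the pair in wild type at 42°C, against 33.8%, 33.3% and 32.7% in control cells, and in Ded1 binding 77.0%, 79.9% and 54.4%, against 34.9%, 35.3% and 39.3%. RPL26A had 4.33, 3.5 and 5.03 scaled reads at 42°C, against 31.1, 33.6 and 41.9 in control cells. RPL26B had 3.93, 3.22 and 3.91, against 60.8, 67.3 and 86.1. Per kilobase the copies lay close together in heat, with 6.13, 4.96 and 7.13 for RPL26A and 6.69, 5.48 and 6.66 for RPL26B. In control cells they had 44.0, 47.6 and 59.3, against 103, 114 and 146 per kilobase. The A share of RPL40 was 65.4%, 67.4% and 64.4% at 42°C, against 51.6%, 51.8% and 51.6%, and in deltaXrn1 it was 40.8% and 39.1% at 42°C, against 32.1% and 32.6% without stress. For RPL14 and RPL24 the A share was lower in heat, with 46.3%, 45.7% and 49.1%, against 62.0%, 61.6% and 63.0% for RPL14, and 39.3%, 38.3% and 39.0%, against 52.2%, 52.8% and 54.9% for RPL24. None of these groups overlapped. RPL22, the pair with the most unequal levels after RPL15, shifted by fewer percentage points, with 87.9%, 87.1% and 88.3% for the A copy at 42°C, against 86.1%, 85.3% and 86.1%. RPL37 parted with cycloheximide, where the A copy had 20.1% and 22.6% of the reads of the pair, against 48.5%, 48.0% and 55.4% at 42°C alone.

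**Figure D5:**
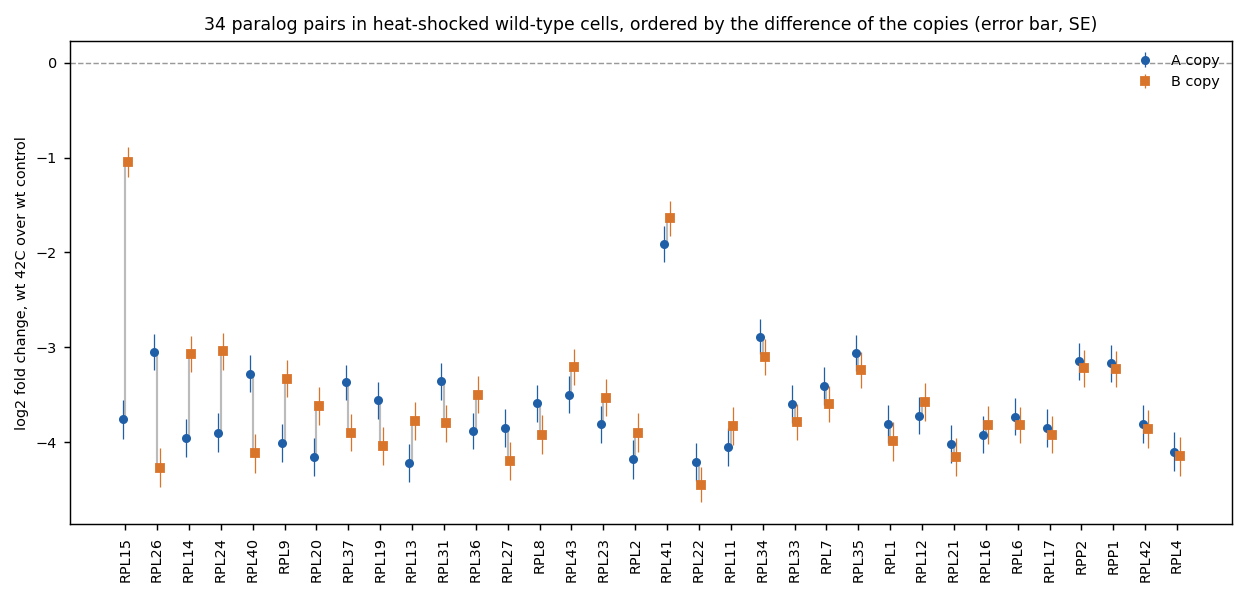
Log2 fold changes in wild-type RNA-seq, 42°C over control, of the A copy (blue circle) and the B copy (orange square) of 34 of the 35 paralog pairs, ordered by the difference between the copies, with the SE as error bar. RPL15B stands at -1.05 and RPL15A at -3.76, and both copies of RPL41 lie above the other pairs.

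Genes of neighbouring pathways were read from lists of their own. Of the 57 genes of the small subunit and its partner ASC1, 55 were lower in eIF4B binding after 16 min without glucose (median -2.7; 17.9% of all genes) and 4 in Ded1 binding (-0.42; 3.59%), and all 57 fell in RNA-seq in heat (-3.63; 63.3%). In the interaction of deltaXrn1 and heat 51 of them were higher (1.19; 12.5%). The values of the small subunit thus lay near those of the 81 large subunit mRNAs, and the difference was not tested. The 7 dedicated chaperones of large subunit proteins, such as ACL4 for the RPL4 protein, RRB1 for RPL3 and SQT1 for RPL10, fell in heat in RNA-seq (7 of 7, median -3.79), in eIF4B binding (7 of 7, -5.57) and in Ded1 binding (7 of 7, -5.9), where 63.3%, 23.7% and 23.0% of all genes did, and 6 of 7 were higher in deltaXrn1 than in wild type at 42°C (0.95; 41.3% of all genes). Of 12 regulators of ribosomal protein genes, such as RAP1, FHL1, IFH1 and SFP1, 7 were lower and 1 was higher in heat in RNA-seq (-0.72) and 2 were lower in eIF4B binding (-1.01). These counts lay near or below the 63.3% and 23.7% of all genes called lower, with medians over all genes of -0.77 and -1.45. Of 10 genes of elongation factors, 9 were called lower in heat in RNA-seq (-1.42), where 63.3% of all genes were (-0.77). In eIF4B binding 8 were called lower (-1.95), where 23.7% of all genes were (-1.45). In Ded1 binding 4 were called lower (-0.86), where 23.0% of all genes were (-0.82).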

How the data were processed

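For each CRAC and RNA-seq library the authors deposited whole-number counts of reads per annotated feature, without normalization, beside an RPKM column that was used here only to recover annotated lengths. The authors trimmed the reads with Flexbar, collapsed duplicates, aligned them with Novoalign to a genome without introns (EF4.74) or, for RNA-seq, to both yeast genomes together, gave multi-mapping reads 1 position at random and counted with pyReadCounters. Libraries 97, 98 and 99 were counted on a later annotation. CRAC reads were counted on the sense strand, and the strand opposite to the read was used for RNA-seq. A feature without a name, with at most 0.0181% of the reads, was left out.

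Low-count genes were removed by filterByExpr (minimum count 10, minimum total 15), and the remaining protein-coding genes were fitted with edgeR 4.0.16 (R 4.3.3) and tested by its robust quasi-likelihood test with Benjamini-Hochberg adjustment over all genes tested, 1 fit per factor with all counted reads as library size, and 1 fit over 18 RNA-seq libraries scaled to S. pombe reads. A gene was called at an adjusted p below 0.05. Differences between factors or strains were tested as interaction terms, in 24 comparisons in all. Figures and values per library used Python 3.11.15 with pandas 2.3.3, scipy 1.17.1 and matplotlib 3.10.9. The fits were tested on simulated data. Alternatives were DESeq2 1.42.0, TMM, mRNA reads as library size, no filter, mock-shifted cells as reference, the library series as covariate and leaving out each library.

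Members, lists and tests were chosen with earlier results of these data known. Members were named by role, and besides by the 3 lowest and 3 highest log2 fold changes of a comparison, and pairs by the 5 largest differences in heat and the 3 most unequal levels, of which 1 is not reported here. Among these, RPL4A, RPL25, RPL41A, RPL40B, RPL22A and RPL7A were also described where a group of values needed an example. RNA-seq replicates were biological duplicates according to the study, but nothing says that CRAC libraries of a group came from separate cultures, so that p-values measure the spread between libraries, which may be technical. No pair of libraries of a group was identical. Among tagged CRAC and RNA-seq libraries the closest differed by more than sampling noise, while untagged libraries 07 and 64 lay near that noise. eIF4A library 51 has conflicting labels for the time without glucose and was placed at 30 s by its description. Sequences of the genes and proteins were not used here.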

Additional observations from a re-analysis of the deposited data

Results flagged for a closer look

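In groups of 4 to 10 libraries, 6 genes named in the text and the member shares were checked for an outlying library. The criterion rested on the gap to the nearest other value over the range of the group, and 8 of 47 checks met it. A single library with reads beside others at 0 always meets it, so that no rate expected by chance can be given. In eIF4A heat shock libraries RPL3 had 137 RPM in library 54 and 0 to 4.08 in the others, RPL15B had 35.4 RPM in library 16 and 0 to 4.08 in the others, and RPL30 had 59.2 RPM in library 83 and 0 in the others. After 16 min without glucose eIF4A library 19 had 20.9 RPM on RPL15B beside 9.59 to 11.2 in the others, and library 12 had 21.8 RPM on RPL22B beside 0. In mock-shifted eIF4A cells library 53 had 134 RPM on RPL15B beside 55.0 to 62.2. In eIF4B heat shock libraries RPL15B had 452 RPM in library 56 beside 25.8 to 69.4, and RPL22B had 1.24 RPM in library 75 beside 0. Without library 56 RPL15B was called lower in heat, as given above.

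Groups under the same contrast differed in 3 tests of the difference itself. The change after 16 min without glucose was lower for eIF4B than for Ded1 in 27 members, the heat shock change was lower for eIF4B than for Ded1 in 2 members, and the heat shock change of the mRNA level was less negative in deltaXrn1 than in wild type in 73 members.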

How the results depend on the processing

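The decreases in heat kept their direction and most of their calls under every alternative run for eIF4B, Ded1 and RNA-seq, and so did the wild-type decreases after glucose withdrawal and the deltaXrn1 results at 42°C. No paired analysis was possible because the library numbers and letters are unique to each library. The scale mattered most after glucose withdrawal. For eIF4B at 30 s, 43 members were called, DESeq2 called 69, and TMM and mRNA reads 0 each (6 and 9 at an unadjusted p under 0.05, edgeR). Of all 5555 genes DESeq2 called 2076 lower, against 610 with edgeR, so that its larger member count goes with more calls everywhere. At 16 min TMM called 8 and mRNA reads 11, in place of 70. Over all genes TMM called 52 lower and 66 higher, and mRNA reads 66 lower and 107 higher. For Ded1 at 30 s, 2 were called, DESeq2 called 4, TMM 13 and mRNA reads 9 (all higher), the series covariate 6 and mock-shifted cells as reference 1, and the median of -0.01 became 0.84 with TMM, 0.62 with mRNA reads, 0.02 against mock-shifted cells and -0.1 to 0.07 when 1 library was left out (0.04 without library 70, 0.07 without 65). Over all genes at 30 s DESeq2 called 1167 lower and 6 higher for Ded1, TMM 123 and 52, and mRNA reads 188 and 28. The series covariate gave 1085 and 6. The member counts that follow are given without the counts over all genes. For Ded1 at 16 min the median of -0.45 became 0.24 with TMM and 0.1 with mRNA reads, and TMM called 6, 1 lower and 5 higher. For eIF4A DESeq2 called 3 at 30 s and 4 at 16 min, and the median at 30 s was 0.12 with mRNA reads. The interaction of eIF4B and Ded1 called 59 with DESeq2 and 0 with TMM or mRNA reads at 16 min without glucose (39 and 22 lower at an unadjusted p under 0.05, edgeR), and in heat 10 with DESeq2, 4 with the series covariate or without the filter and 0 with TMM or mRNA reads (15 and 9). Unstressed eIF4B against Ded1 called 1 with DESeq2 and could not be fitted with the series covariate. With cycloheximide TMM called 37 in eIF4B binding, and RPL15B and RPP0 turned to -0.4 and -0.25 in RNA-seq. deltaSki2 at 42°C called 25 with TMM, 27 with mRNA reads and 1 with the series covariate. Unstressed deltaXrn1 called 47 with TMM (44 lower, 3 higher) and 21 with mRNA reads (13 lower, 8 higher), and RPL15B in deltaXrn1 at 42°C turned to -0.29 with TMM. The median difference of eIF4A levels in heat was -6.6 with a pseudocount of 1 in place of 3 RPM (-5.86), and the median change of the A share of pairs in eIF4A libraries was 31.3 points with at least 20 reads on a pair in place of 19.1.

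Leaving out 1 library gave 3 to 40 calls for eIF4B at 30 s (3 without library 72, 4 without 73), 54 to 66 at 16 min, 80 to 81 in heat and 48 to 70 with cycloheximide. It gave 0 to 2 for Ded1 at 30 s (0 without 69, 1 without 57, 61 or 65), 1 to 6 at 16 min and 80 to 81 in heat, and 65 to 69 for eIF4A in heat. The interaction gave 5 to 27 without glucose and 0 to 5 in heat. RNA-seq gave 79 to 81 without glucose, 81 in heat, 79 to 81 with cycloheximide, 1 to 30 for deltaSki2 at 42°C, 69 to 79 for deltaXrn1 at 42°C, 60 to 76 for its interaction and 4 to 10 for unstressed deltaXrn1 (5 without library M, 4 without A). Depth was uneven in heat: the 4 eIF4A libraries held 197561 to 810854 counted reads and detected 24 to 54 members each, and eIF4B libraries 23 and 56 held 232486 and 183689 and detected 56 and 31.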
